A study of Mus musculus with 6 samples.

Results

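The genes described here are 51 genes of DNA replication and mitosis, found by symbol in the annotation of the deposited FPKM table. All 51 were present, each on 1 row, among 25032 genes with at least 1 read. They were taken as 27 S-phase genes, which prepare and copy DNA, and 24 mitotic genes, which divide the copied chromosomes. The RNA came from the BV2 line, immortalised microglia of the mouse, in 3 libraries labelled as overexpressing TDP43-NLS and 3 labelled as overexpressing GFP. TDP-43 is a mainly nuclear RNA-binding protein, and the series' design text writes the construct as NLSmut, NLS being the common short form of nuclear localisation signal. GFP, a fluorescent protein, served as the control. Cells of both groups were grown in the same medium with serum, and no other treatment is given. How the constructs were delivered, their promoter and species, for how long they were expressed and whether each line is 1 clone or a pool are not given in the sources used here. The labels number the libraries without saying that they came from separate cultures, so p-values measure only how much these samples differ among themselves, which may be technical.

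A dividing cell copies its DNA once per cycle. In G1 phase the origin recognition complex, Cdc6 and Cdt1 load the MCM helicase onto DNA, and at the start of S phase Cdc45 and the GINS complex turn it into an active helicase, behind which the polymerases copy both strands. E2F transcription factors switch on the S-phase genes, and the MuvB complex with B-Myb and Foxm1 switches on the mitotic genes. In resting cells E2F4 with the pocket proteins p107 and p130 holds both sets down.

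The promoters of both sets carry known elements, and 8 are shown to let the elements be seen. They belong to S-phase and mitotic genes that changed in either direction, and were chosen after their values and matches were known. Promoter windows of 300 bases, 250 before the transcript start and 50 after it, came from RefSeq on build GRCm38.p6 and matched 40 of the 51 genes by symbol. Each sequence below is the 160 bases before the start, 5′ to 3′ on the gene's strand. Capitals mark matches on either strand to an E2F element (TTTGGCGC, TTTGCCGC, TTTCGCGC or TTTCCCGC), to the cell cycle genes homology region, CHR (TTTGAA or TTTAAA), which MuvB binds, or to the CCAAT box (CCAAT), which NF-Y binds. On GRCm38.p6 the S-phase sequences lie at chr8:75109349-75109508 (plus strand) for Mcm5, chr1:128359706-128359865 (minus strand) for Mcm6, chr16:23127731-23127890 (minus strand) for Rfc4 and chr7:38107491-38107650 (minus strand) for Ccne1. The mitotic sequences lie at chr13:100786487-100786646 (minus strand) for Ccnb1, chr7:122159275-122159434 (plus strand) for Plk1, chr4:118437344-118437503 (minus strand) for Cdc20 and chr11:99024190-99024349 (minus strand) for Top2a.
Mcm5: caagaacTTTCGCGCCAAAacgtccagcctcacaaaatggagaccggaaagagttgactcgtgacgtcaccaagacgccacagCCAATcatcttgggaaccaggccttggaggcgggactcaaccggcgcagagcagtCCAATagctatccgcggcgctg
Mcm6: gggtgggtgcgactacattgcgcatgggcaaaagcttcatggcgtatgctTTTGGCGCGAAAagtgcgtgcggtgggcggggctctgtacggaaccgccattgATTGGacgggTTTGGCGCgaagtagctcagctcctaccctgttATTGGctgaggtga
Rfc4: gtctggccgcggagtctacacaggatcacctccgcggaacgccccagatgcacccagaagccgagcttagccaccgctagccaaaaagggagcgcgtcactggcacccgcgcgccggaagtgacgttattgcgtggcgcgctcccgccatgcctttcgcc
Ccne1: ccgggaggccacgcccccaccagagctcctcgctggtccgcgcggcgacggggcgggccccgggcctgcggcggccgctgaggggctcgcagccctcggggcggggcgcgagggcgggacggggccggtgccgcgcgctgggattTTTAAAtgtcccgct
Ccnb1: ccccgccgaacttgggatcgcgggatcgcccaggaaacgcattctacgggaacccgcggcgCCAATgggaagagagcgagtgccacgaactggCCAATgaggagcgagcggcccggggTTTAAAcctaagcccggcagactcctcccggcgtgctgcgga
Plk1: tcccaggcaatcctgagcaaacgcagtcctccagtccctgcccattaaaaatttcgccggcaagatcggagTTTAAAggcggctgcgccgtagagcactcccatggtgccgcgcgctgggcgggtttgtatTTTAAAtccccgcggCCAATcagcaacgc
Cdc20: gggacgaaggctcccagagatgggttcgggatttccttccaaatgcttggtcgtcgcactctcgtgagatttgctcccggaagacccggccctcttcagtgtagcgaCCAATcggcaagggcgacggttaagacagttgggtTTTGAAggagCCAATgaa
Top2a: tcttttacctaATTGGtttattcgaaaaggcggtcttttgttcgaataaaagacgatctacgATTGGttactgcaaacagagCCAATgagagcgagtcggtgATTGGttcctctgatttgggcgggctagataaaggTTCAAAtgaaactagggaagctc
Mcm5 and Mcm6, subunits of the helicase, each carry a pair of E2F matches that overlap each other on opposite strands, with CCAAT boxes downstream. Ccnb1, Plk1, Cdc20 and Top2a each carry a CHR match near the start and at least 1 CCAAT box. Rfc4, a subunit of the clamp loader, has no match in its whole window, and Ccne1, which encodes cyclin E1, has a CHR match only.

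An E2F element stood in 41.7% of the 24 windows of S-phase genes and 5.26% of the 19 windows of mitotic genes, against 2.26% of all 32851 windows. The CHR stood in 29.2% of S-phase windows and 89.5% of mitotic windows, against 27.6% of all windows. CCAAT boxes stood in 70.8% of S-phase windows and 89.5% of mitotic windows, against 37.4% of all windows. The CHR and the CCAAT box stood together most often in mitotic genes, in 84.2% of their windows and in 20.8% of S-phase windows, against 10.7% of all windows. In the members' windows 1 E2F match overlapped a CCAAT match, and no CHR match overlapped either. Over the 12149 windows of tested genes alone the shares were 3.98% for E2F, 19.7% for CHR, 37.8% for CCAAT and 7.79% for CHR with CCAAT. Among mitotic genes the CHR stood in 12 of 13 windows of genes called lower in TDP43-NLS in the 1 window of a gene called higher and in 4 of 5 windows of genes with no call. Among S-phase genes the E2F element stood in 6 of 14 windows of genes called lower, in 1 of 3 windows of genes called higher and in 3 of 7 windows of genes with no call. A match describes the letters of a window and is not a binding site.

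**Figure D1:**
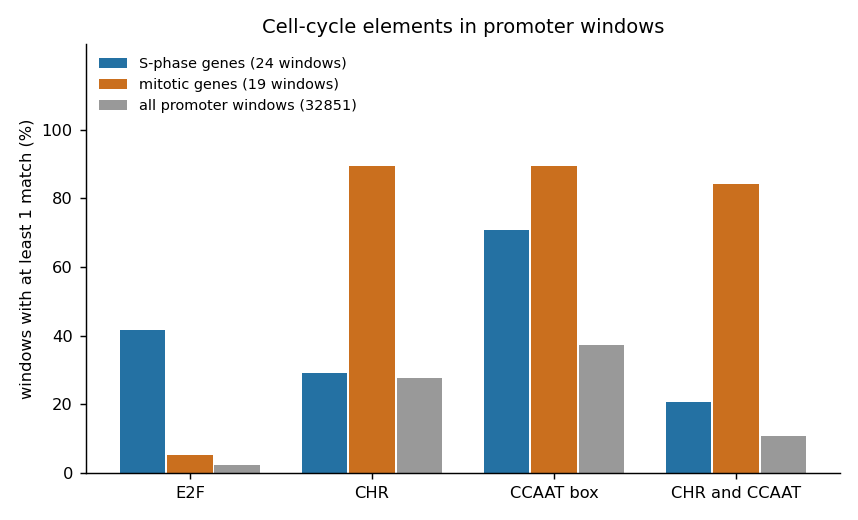
Share of promoter windows (percent, vertical axis) with at least 1 match to each element, for S-phase genes, mitotic genes and all windows. The E2F share is highest for S-phase genes (41.7%), and the share with both CHR and CCAAT is highest for mitotic genes (84.2%).

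The libraries held 15062131 to 18005592 counted reads. Tardbp, the mouse gene of TDP-43, had 5671, 6506 and 6633 reads in TDP43-NLS libraries, against 7229, 7160 and 8154 reads in GFP libraries (log2 fold change -0.26, adjusted p = 0.000291 in edgeR's quasi-likelihood test). The construct has no row of its own, so the groups are called by their labels. Of 12 microglia and macrophage markers 11 had reads. Their summed levels were 1026 to 1044 FPKM in TDP43-NLS libraries and 1060 to 1115 FPKM in GFP libraries. Singly 5 rose and 5 fell, or 45.5% each way, against 29.3% higher and 28.2% lower over all tested genes. Log2 fold changes of these 11 markers ran from -2.27 to 1.52. P2ry12 (0.0873 to 0.112 FPKM in TDP43-NLS, 0.384 to 0.611 FPKM in GFP) and Tmem119, which mark resting microglia in the brain, were near 0, and Sall1 was not found. The 10 markers of other brain cells summed to 0.74 to 0.847 FPKM in TDP43-NLS and 0.37 to 0.581 FPKM in GFP libraries. The 2 of them tested had log2 fold changes of 0.29 and 3.17, and 1 was called higher. Aqp4, Rbfox3, Snap25 and Mog were not found. GFP replicate 2 stood apart, with a chi-square per degree of freedom over genes of 7.24 and 7.27 against the other GFP libraries, which differed from each other by 1.20. Calls that change without it are given both ways.

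Transcripts of both sets were mostly lower in the libraries labelled TDP43-NLS, by small amounts. Among S-phase genes 16 of 27 fell, 4 rose and 7 had no call. Among mitotic genes 17 of 24 fell, 2 rose and 5 had no call. Calls are Benjamini-Hochberg adjusted p under 0.05 in edgeR's quasi-likelihood test over 13199 genes, of which 28.2% fell and 29.3% rose, or 57.5% in either direction. The same shares stand beside the counts of each smaller group of genes below. All 51 genes passed the filter on low counts. The median log2 fold change was -0.17 for S-phase genes and -0.28 for mitotic genes, beside 0.0027 for all tested genes. Changes ran from -0.52 to 0.48 among S-phase genes and from -0.61 to 0.21 among mitotic genes. Against a log2 fold change of 0.5, Kif23 alone kept its call, where 5.64% of all tested genes were called lower and 9.25% higher. Without GFP replicate 2, Pcna and Cdk1 also fell, which made 17 S-phase and 18 mitotic genes lower, but calls were more frequent throughout, with 30% of 13450 tested genes lower and 31.3% higher. Whether S-phase and mitotic genes differ was not tested. In bulk RNA, fewer cells in a phase and less RNA per cell cannot be told apart.

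The groups did not overlap for 39 of the 51 genes, 33 lower and 6 higher in TDP43-NLS, against 31.2% lower, 32% higher and 63.2% either way over all tested genes. These are well expressed genes: mean levels in GFP libraries ran from 3.38 FPKM for Cdc25c to 243 FPKM for Pcna, and 50 of the 51 lay above the median of tested genes. The median coefficient of variation was 2.53% in TDP43-NLS and 3.65% in GFP libraries.

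**Figure D2:**
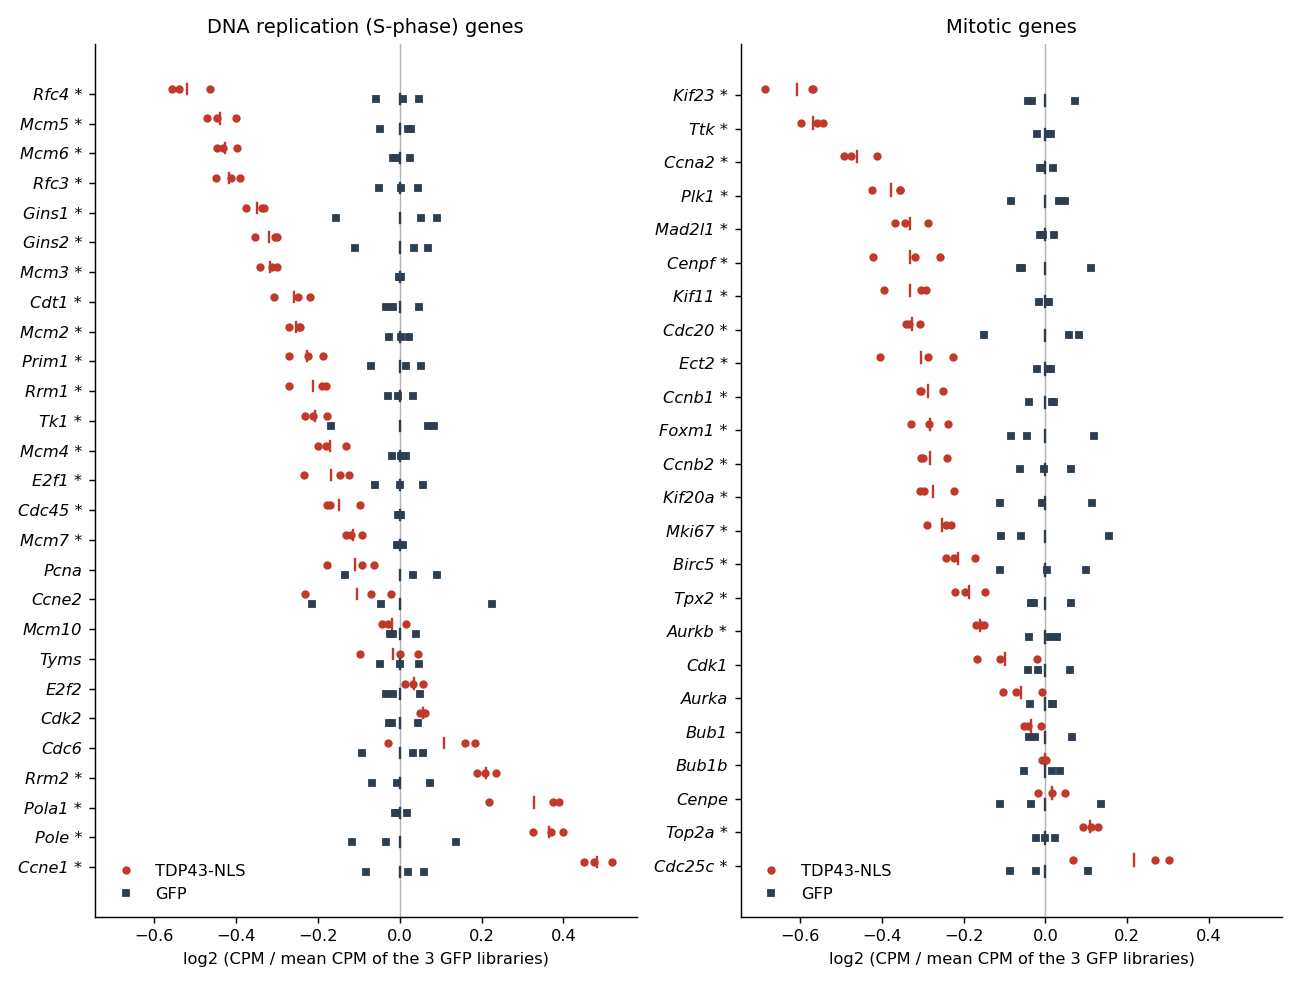
Level of each gene in each library as log2 of CPM over the mean CPM of the GFP libraries (horizontal axis), S-phase genes left and mitotic genes right. Circles are the 3 TDP43-NLS libraries, squares the 3 GFP libraries, ticks group means, and an asterisk marks an adjusted p under 0.05. In most genes all circles lie left of all squares, and Ccne1 lies farthest to the right (0.48).

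The replicative helicase fell in all 6 subunits. CPM are a gene's reads scaled to the TMM-adjusted library total. Summed over Mcm2 to Mcm7, the level was 2004.9, 1969.1 and 1956.2 CPM in TDP43-NLS libraries, against 2455.8, 2464 and 2466.1 CPM in GFP libraries. The groups stood far apart beside the spread within each.

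Mcm5 (ENSMUSG00000005410) lies on GRCm39 at chr8:75836197-75855067, plus strand. It had 394, 382 and 375 CPM in TDP43-NLS libraries, against 531, 504 and 528 CPM in GFP libraries. All TDP43-NLS libraries were below all GFP libraries, and Mcm5 fell by 0.44 on the log2 scale (SE 0.04, adjusted p = 8.72e-07, edgeR). Mcm6 had 391, 382 and 378 CPM in TDP43-NLS libraries, against 509, 525 and 513 CPM in GFP libraries. It also separated fully, with a fall of 0.43 (SE 0.04, adjusted p = 6.31e-07, edgeR), where its neighbours had a median of -0.21. Mcm3 fell by 0.32, Mcm2 by 0.25, Mcm4 by 0.17 and Mcm7 by 0.11 on the log2 scale, and the sign of Mcm4 turned once the shift of its neighbours was taken off. The loading factor Cdt1 fell by 0.26, while Cdc6, which loads MCM with it, had a log2 fold change of 0.11 with overlapping groups (adjusted p = 0.139, edgeR), and was called higher without TDP43-NLS replicate 1 (0.18, adjusted p = 0.0268). Of the 8 licensing genes 7 fell.

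Helicase activation involves Cdc45, the GINS complex and Mcm10, and 3 of these 4 genes fell. Gins1 had 45.3, 46.6 and 46.8 CPM in TDP43-NLS libraries, against 61.0, 52.8 and 62.8 CPM in GFP libraries. Its groups did not overlap, although GFP replicate 2 lay below the other GFP libraries (log2 fold change -0.35, SE 0.06, adjusted p = 0.000448, edgeR). Gins2 had 47.9, 47.7 and 46.1 CPM in TDP43-NLS libraries, against 60.3, 54.7 and 61.8 CPM in GFP libraries. The same order of GFP libraries was seen, with a log2 fold change of -0.32 (SE 0.06, adjusted p = 0.000316, edgeR). Cdc45 fell by 0.15, with the same turn as Mcm4, and Mcm10 had a log2 fold change of -0.02 (adjusted p = 0.737), or 0.00072 without GFP replicate 2.

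Fork synthesis genes moved both ways, 3 lower and 2 higher of 6, or 50% and 33.3%, against 28.2% and 29.3% over all tested genes. Rfc4 (ENSMUSG00000022881, GRCm39 chr16:22932693-22946487, minus strand) had 43.5, 45.8 and 43.0 CPM in TDP43-NLS libraries, against 65.3, 60.8 and 63.5 CPM in GFP libraries. No library overlapped, and its fall of 0.52 on the log2 scale was the largest among S-phase genes (SE 0.05, adjusted p = 2e-06, edgeR). Its neighbours had a median of -0.33. Rfc3, another clamp loader subunit, had 28.8, 28.4 and 27.7 CPM in TDP43-NLS libraries, against 39.0, 36.5 and 37.9 CPM in GFP libraries. This too was a full separation (log2 fold change -0.42, SE 0.06, adjusted p = 3.05e-05, edgeR). The primase subunit Prim1 fell by 0.23. Pcna, the sliding clamp that the loader places on DNA, had a log2 fold change of -0.11 and overlapping groups (adjusted p = 0.11), and fell by 0.17 without GFP replicate 2 (adjusted p = 5.95e-05, edgeR).

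Both polymerase subunits in the set rose. Pole, the catalytic subunit of the leading-strand polymerase, had 104, 102 and 98.5 CPM in TDP43-NLS libraries, against 72.4, 86.5 and 76.8 CPM in GFP libraries. Its groups did not overlap (log2 fold change 0.36, SE 0.06, adjusted p = 0.000176, edgeR). Pola1, of the polymerase that starts each new strand with primase, had 107, 119 and 121 CPM in TDP43-NLS libraries, against 91.4, 91.7 and 93.2 CPM in GFP libraries. It separated as well (log2 fold change 0.33, SE 0.05, adjusted p = 9.92e-05, edgeR), but its neighbours on the X chromosome had a median log2 fold change of 0.42.

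Of the 4 genes of nucleotide supply 2 fell and 1 rose, and of the 5 genes of G1/S control 1 fell and 1 rose. For G1/S control this is 20% each way, near or below the 28.2% lower and 29.3% higher over all tested genes. Ribonucleotide reductase makes the DNA building blocks, and its large subunit Rrm1 fell by 0.21 while its small subunit Rrm2 rose by 0.21 on the log2 scale, where its neighbours had a median of 0.26. Thymidine kinase Tk1 fell by 0.21 (adjusted p = 0.0118, edgeR). It lost its call without TDP43-NLS replicate 1 or 2 or GFP replicate 1 or 3 (adjusted p = 0.0544 to 0.0681, edgeR). Thymidylate synthase Tyms had a log2 fold change of -0.02 (adjusted p = 0.804). Ccne1, whose cyclin E1 activates Cdk2 at the entry into S phase, had 80.6, 84.5 and 82.0 CPM in TDP43-NLS libraries, against 61.4, 55.7 and 59.9 CPM in GFP libraries. All TDP43-NLS libraries exceeded all GFP libraries, and Ccne1 rose by 0.48 (SE 0.05, adjusted p = 3.2e-06, edgeR). E2f1 fell by 0.17. Ccne2, E2f2 and Cdk2 had no call, with log2 fold changes of -0.10, 0.03 and 0.06, and Ccne2 stood at 0.02 without GFP replicate 2.

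**Figure D3:**
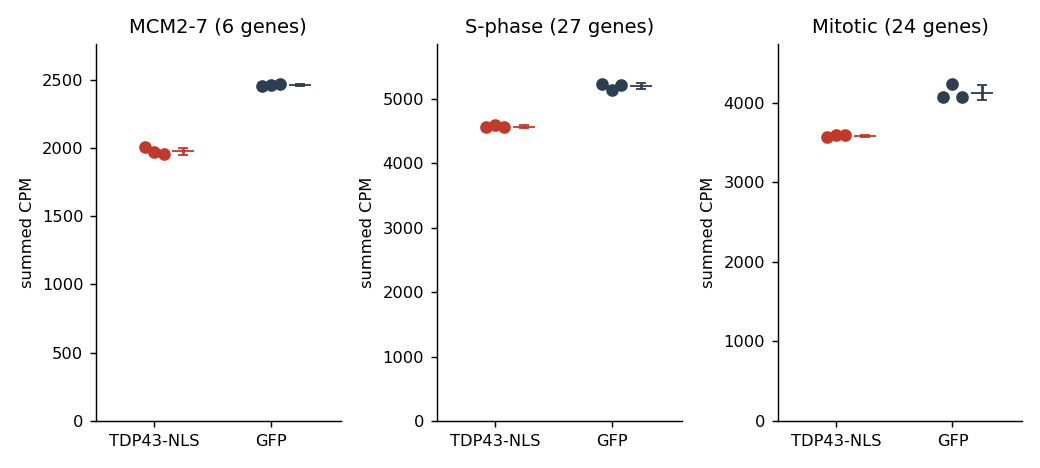
Summed CPM (vertical axis from 0) of MCM2-7, of all S-phase genes and of all mitotic genes in each library, TDP43-NLS left of GFP. Points are libraries and bars the mean ± SD of 3. S-phase genes summed to 4573 ± 23.1 CPM in TDP43-NLS and 5197 ± 47.6 CPM in GFP libraries, and mitotic genes to 3587 ± 12.7 and 4127 ± 91.8 CPM.

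Entry into mitosis is driven by cyclins A and B with Cdk1, and 5 of the 8 genes of entry fell. Ccna2, which encodes cyclin A2, had 126, 124 and 131 CPM in TDP43-NLS libraries, against 173, 174 and 177 CPM in GFP libraries. The groups were far apart (log2 fold change -0.46, SE 0.04, adjusted p = 6.63e-07, edgeR). Plk1, a kinase of mitotic entry and spindle assembly, had 113, 118 and 118 CPM in TDP43-NLS libraries, against 155, 156 and 143 CPM in GFP libraries. It also separated (log2 fold change -0.38, SE 0.05, adjusted p = 1.55e-05, edgeR). The cyclin B genes Ccnb1 and Ccnb2 fell by 0.29 and 0.28, and Foxm1 by 0.28 on the log2 scale. Cdk1 itself had a log2 fold change of -0.10 (adjusted p = 0.108), and fell by 0.12 without GFP replicate 2 (adjusted p = 0.0182, edgeR). The kinase gene Aurka had a log2 fold change of -0.06 and no call. Cdc25c, whose phosphatase activates Cdk1, had 20.2, 17.2 and 19.7 CPM in TDP43-NLS libraries, against 16.1, 17.6 and 15.4 CPM in GFP libraries. Its groups overlapped, and its rise of 0.21 only just passed (SE 0.08, adjusted p = 0.0471, edgeR). The call failed with the replicate number as a block (adjusted p = 0.0617, edgeR) and in DESeq2 (adjusted p = 0.116). It also failed with upper-quartile scaling, library totals alone, FPKM and the neighbour offset, and without replicate 1 or 3 of either group.

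The spindle checkpoint holds the cell until every chromosome is attached. Ttk, the kinase at its head, had 39.9, 38.9 and 40.4 CPM in TDP43-NLS libraries, against 58.0, 59.2 and 59.5 CPM in GFP libraries. Replicates were nearly alike and the groups far apart (log2 fold change -0.57, SE 0.05, adjusted p = 4.62e-07, edgeR). Mad2l1, which inhibits the ubiquitin ligase activator Cdc20, had 57.0, 57.9 and 60.2 CPM in TDP43-NLS libraries, against 74.5, 73.2 and 72.8 CPM in GFP libraries. It separated too (log2 fold change -0.33, SE 0.05, adjusted p = 4.48e-05, edgeR). Cdc20 fell by 0.33. The other checkpoint genes, Bub1 and Bub1b, had log2 fold changes of -0.04 and -0.0022 and no call.

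Among spindle genes 3 of 4 fell. Cenpf, a kinetochore protein, had 77.5, 86.8 and 83.2 CPM in TDP43-NLS libraries, against 99.7, 112 and 99.5 CPM in GFP libraries. These did not overlap (log2 fold change -0.33, SE 0.06, adjusted p = 0.000333, edgeR). The spindle motor gene Kif11 fell by 0.33 and the assembly factor Tpx2 by 0.19. Cenpe, a kinetochore motor, had 108, 111 and 106 CPM in TDP43-NLS libraries, against 105, 118 and 99.3 CPM in GFP libraries. The TDP43-NLS values lay inside the GFP range (log2 fold change 0.02, SE 0.06, adjusted p = 0.845, edgeR), and the sign turned with library totals alone and on FPKM.

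All 5 genes of the chromosomal passenger complex and cytokinesis fell. Kif23 (ENSMUSG00000032254, GRCm39 chr9:61823187-61854056, minus strand), a motor of the central spindle, had 90.0, 97.7 and 97.4 CPM in TDP43-NLS libraries, against 141, 152 and 141 CPM in GFP libraries. Its fall of 0.61 on the log2 scale was the largest of the 51 (SE 0.05, adjusted p = 2.84e-07, edgeR), with no overlap. Ect2, which activates RhoA at the division site, fell by 0.30, the motor Kif20a by 0.28, Birc5 by 0.21 and the passenger kinase Aurkb by 0.16. The proliferation marker Mki67 fell by 0.25. Without GFP replicate 2 falls moved both ways, to 0.17 for Mki67 and to 0.40 for Cdc20, and both kept their calls. Top2a, the enzyme that untangles copied chromosomes, had 405, 411 and 415 CPM in TDP43-NLS libraries, against 374, 387 and 380 CPM in GFP libraries. Its small rise separated the groups (log2 fold change 0.11, SE 0.04, adjusted p = 0.0242, edgeR), but lost its call with library totals alone (adjusted p = 0.119) and on FPKM. The call was also lost without TDP43-NLS replicate 2 or 3 or GFP replicate 1 or 3.

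For 8 members a gene on the opposite strand overlaps them and had at least 10% of their number of reads: Mcm7, Cdc45, Gins2, Rfc4, Ccne2, Ccna2, Cdc20 and Kif20a. For Rfc4 the overlapping gene Eif4a2 had 287% of its reads, and for Gins2 the gene Gse1 had 127%. These percentages compare reads of whole genes, not of the stretch that they share. No source here states the strand setting of the counting, so how far the overlap bears on the counts of these pairs is not known. The pseudogenes Pcna-ps2 and Ccnb1-ps had 1.37% and 1.74% of the reads of their parent genes.

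Neighbouring genes also shifted along chromosomes. The median log2 fold change of tested genes outside the lists was -0.31 on chromosome 9 (701 genes), -0.21 on chromosome 16 (394 genes) and 0.18 on chromosome 12 (473 genes). Across the 51 genes, the change of a gene and the median of its neighbours within 5 Mb had a Pearson correlation of 0.54, given as a description, since neighbouring members share neighbours. With the neighbours' median taken off as an offset, 14 S-phase genes fell and 4 rose, and 16 mitotic genes fell and none rose, against 27.9% lower and 28.4% higher over all tested genes. The medians were then -0.11 and -0.18. Mcm4 and Cdc45, on chromosome 16, turned to 0.12 and 0.14 on the log2 scale (adjusted p = 0.0219 and 0.00932, edgeR). Pola1 turned to -0.085 (adjusted p = 0.177, edgeR) and Rrm2 to -0.047, and both lost their calls, as did Ccnb2, Cdc25c and Top2a. Cdk2 and Tyms, which had no call, also changed sign, to -0.069 and 0.032. Kif23, Ttk, Rfc4, Ccne1 and Pole kept theirs, with changes of -0.50, -0.39, -0.19, 0.45 and 0.15. With the offset the largest falls were those of Mcm5 at -0.58 and Ccna2 at -0.57. Calls were also kept by Mcm6 at -0.22, Cenpf at -0.19 and Mki67 at -0.15, each over 1.5 times smaller than without the offset, and by Prim1 and Rrm1 at -0.35 and -0.32, each over 1.5 times larger. What shifts the neighbours was not tested.

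**Figure D4:**
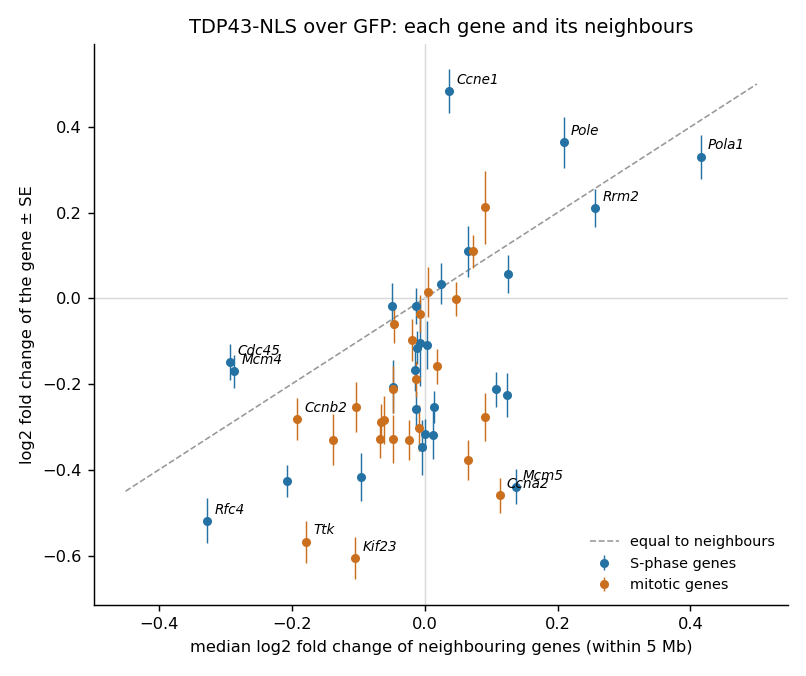
Log2 fold change of each gene (vertical axis, bars ± SE) against the median log2 fold change of genes within 5 Mb (horizontal axis), TDP43-NLS over GFP. The dashed line marks equal values. Of the 51 genes 41 lie below it, and Cdc45, Mcm4, Ccne1 and Pole are among those above.

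Other genes of the same pathways, from lists chosen with earlier results of these data known, were counted next. Of 46 other replication genes 21 (45.7%) fell, 3 (6.52%) rose and 22 had no call, with a median log2 fold change of -0.14. Over all tested genes 28.2% fell and 29.3% rose. Dbf4, the activator of the Cdc7 kinase that fires origins, fell by 0.96, where its neighbours had a median of -0.58. Gmnn, whose geminin inhibits Cdt1, fell by 0.56 and the polymerase epsilon subunit Pole4 by 0.42. Orc1, of the origin recognition complex, rose by 0.44 and Rfc5 by 0.20. Of 62 other mitosis genes 40 (64.5%) fell, 6 (9.68%) rose and 16 had no call, with a median of -0.21. The chromosome motor gene Kif4 fell by 1.23, with 31.3, 27.7 and 32.4 CPM in TDP43-NLS libraries, against 71.9, 72.0 and 70.8 CPM in GFP libraries. Cks2, a cofactor of Cdk1, fell by 1.02 and the centromere gene Cenpm by 0.80, while Pttg1, which encodes securin, rose by 0.68 and Cdc25b by 0.53.

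**Figure D5:**
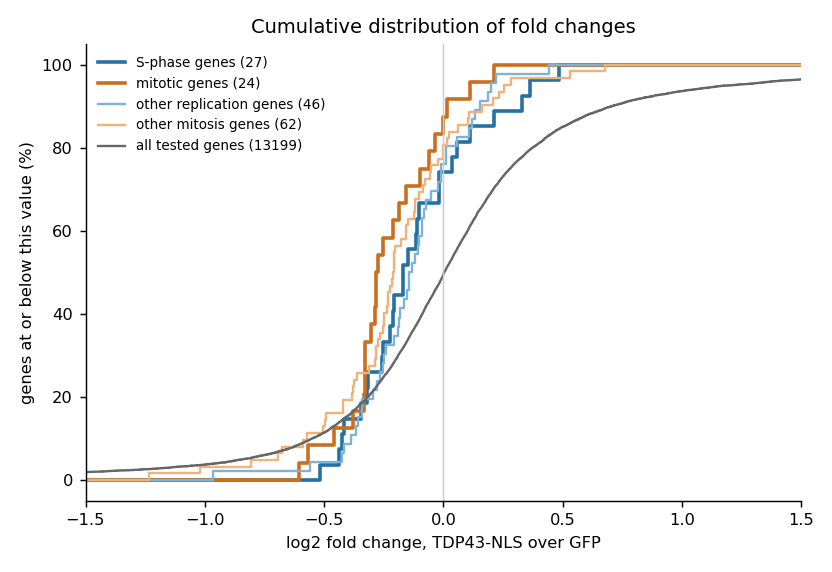
Cumulative share of genes (percent, vertical axis) at or below each log2 fold change (horizontal axis, TDP43-NLS over GFP) for S-phase, mitotic, other replication, other mitosis and all tested genes. The gene groups cross the middle left of the curve of all genes, with medians of -0.17, -0.28, -0.14, -0.21 and 0.0027.

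Among transcriptional controllers of these genes 8 of 15 tested fell, 3 rose and 4 had no call. The shares over all tested genes were 28.2% lower and 29.3% higher. E2f7 and Lin54 were not found by name. The controllers named next were picked after their values were seen. E2f3, an activator, fell by 0.60, its partner gene Tfdp2 by 0.71 and the MuvB subunit Lin9 by 0.42 on the log2 scale. Mybl2, which encodes B-Myb, fell by 0.15. E2f4 had 177, 173 and 164 CPM in TDP43-NLS libraries, against 132, 143 and 129 CPM in GFP libraries. It rose by 0.35 (SE 0.05, adjusted p = 4.7e-05, edgeR). The retinoblastoma gene Rb1 rose by 0.28 and Rbl1, which encodes p107, by 0.18. Whether any of these controllers bears on the changes of the members was not tested.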

How the data were processed

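RNA of 6 BV2 libraries was analysed. The authors deposited raw counts per gene for 55359 genes and FPKM, with annotation, for the 25032 genes with a read. The deposited FPKM equal the counts divided by library total and a fixed gene length (largest relative difference 6.38e-16). The submitters' processing notes name HISAT2 2.1.0, HTSeq 0.6.0, Bowtie2 2.2.3 and GRCm39, with no role or order. Counts were tested with edgeR 4.0.16 in R 4.3.3: filterByExpr (minimum count 10, minimum total 15), TMM, and the two-sided quasi-likelihood test at package defaults with group as the only term, Benjamini-Hochberg adjusted over 13199 genes. The SE is the log2 fold change over the square root of F. The variation between libraries of a group, as the square root of edgeR's common dispersion, was 4.62%. This spread may be technical. The procedure was tested on simulated counts that gave every gene the same dispersion, with no outlying library and no shift along chromosomes. Those features of the data are therefore not covered by it. DESeq2 1.42.0 and limma 3.58.1 were alternatives.

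Members and lists were chosen with earlier results of these data known. Values per library are given for the 6 lowest and 3 highest log2 fold changes in each set, and for E2f4 and Kif4, picked after their values were seen. Of the other pathway lists, the 3 lowest and 2 highest called genes are named. Other controllers were also named after their values were seen. Added after seeing the data were the check of overlapping genes with its 10% limit, the choice of promoters shown, and a comparison of 16 edgeR settings. One of these, the newer quasi-likelihood estimate, was used for a time because its counts over all genes equalled those of earlier work. The package default, which the written design implies, was then restored. The 16 settings called 3846 to 3872 genes higher and 3716 to 3733 lower, and in each the members gave 16 lower and 4 higher S-phase genes and 17 lower and 2 higher mitotic genes. The numbers are not said to mark cultures or days, so they were not taken to pair libraries, and a replicate block was an alternative. Deviations from the group mean correlated at -0.154, 0.0207 and 0.112 between same-numbered libraries. With 3 libraries per group this cannot show whether pairs exist.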

Additional observations from a re-analysis of the deposited data

How the results depend on the processing

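Against a log2 fold change of 0.5, S-phase genes gave 0 higher and 0 lower, mitotic genes 0 higher and 1 lower, other replication genes 0 and 1, other mitosis genes 1 and 5, and all tested genes 1221 and 744. The S-phase median was -0.18 with upper-quartile scaling, -0.20 with library totals alone, -0.16 with no filter on low counts, -0.20 for limma on log2(FPKM + 1), with or without its filter, and on log2(FPKM + 0.1), and -0.11 with the neighbour offset. The mitotic median was -0.32 with library totals alone, -0.30 on log2(FPKM + 1), with or without its filter, -0.31 on log2(FPKM + 0.1) and -0.18 with the neighbour offset. Mitotic genes called higher numbered 1 with DESeq2, 1 with upper-quartile scaling, and 0 with library totals alone, on FPKM in all 3 limma fits and with the neighbour offset. With the replicate number as a block this count was 1, since Cdc25c lost its call, and no other member's call changed. Leaving out 1 library at a time gave 13 to 17 S-phase genes lower and 4 to 5 higher, 17 to 18 mitotic genes lower and 0 to 2 higher, and medians of -0.17 to -0.13 and -0.29 to -0.24. The same fits called 3512 to 4210 of all tested genes higher and 3188 to 4041 lower. In them Tk1, Mcm7, Cdc45, E2f1, Cdc25c or Top2a lost a call, Cdc6, Pcna or Cdk1 gained one, and Bub1b, Tyms, Mcm10 or Ccne2, which had none, changed sign. Cenpe changed sign to -0.022 with library totals alone, to -0.017 on log2(FPKM + 1), with or without its filter, and to -0.018 on log2(FPKM + 0.1), and without 1 library it ran from -0.041 to 0.089. With the neighbour offset Pola1 changed sign to -0.085, and Mcm4, Cdc45, Rrm2, Cdk2 and Tyms changed sign as well. The newer and the robust quasi-likelihood estimates, chosen after seeing the data, changed no member's call. The cause of these changes was not tested.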
